A study of Mus musculus with 11 samples.

Results

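Cells take up sugars, amino acids, lactate, ketone bodies, fatty acids and osmolytes through solute carriers, membrane proteins that are grouped in Slc families by their sequence. In the hypothalamus these carriers move glucose from blood into glia and neurons, hand lactate from astrocytes to neurons and clear transmitters from the synapse, and hypothalamic neurons that control feeding read glucose, amino acids and fatty acids as signals of energy supply. The set described here holds the genes of the Slc2, Slc5, Slc6, Slc7, Slc16, Slc27, Slc36 and Slc38 families whose brightest probe was well above background on at least 5 of 11 arrays, and 80 of the 17189 genes tested met this rule. Most are carriers of the plasma membrane, although Slc2a6, Slc2a8, Slc36a1, Slc38a7 and Slc38a9 are known from membranes inside the cell as well, and Slc7a6os, which the naming rule takes in, overlaps Slc7a6 and encodes no carrier.

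RNA came from the hypothalamus of male C57BL/6N offspring at postnatal day 21 (P21), in 5 samples from dams fed standard chow (CO) and 6 from dams fed a high-fat diet from weaning, before mating, in pregnancy and during lactation (HFD), and no genetic change is named for either group. The labels do not say whether a sample is a single animal or which samples share a dam, so p-values measure only the spread between these samples. The question was whether the mother's diet changed the level of these mRNAs in the offspring at the age of weaning. Each sample was hybridized to its own single-dye Agilent array, and a level is given as log2 of the spot's processed signal relative to the 75th percentile of its array, so that a level below 0 lies under that percentile. Levels of different genes are not set against each other, since each probe binds with its own strength. A difference is the HFD mean minus the CO mean on the log2 scale, tested with limma and adjusted over all 17189 genes, and a gene is said to rise or fall where the adjusted p was under 0.05.

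The arrays of the HFD group were scanned 337 days from those of the CO group, on other slides and with another version of the extraction settings, so scan session and diet cannot be told apart in any value below. Spike-in control probes were 0.67 higher on the HFD arrays relative to the percentile, and scaling to them lowers every difference by that amount, so that every rise under 0.67 given below, of carriers and of other genes, has the opposite sign on that scale. With that scaling Slc16a7, Slc16a14 and Slc7a11 still rose, and the rises of Slc5a3 (0.38) and Slc38a4 (0.13) no longer passed. All 16 listed hypothalamic genes, such as Agrp, Pomc and Oxt, were measured and 14 were well above background on all 11 arrays. So were 9 of 9 striatal and 9 of 9 choroid plexus genes, so detection alone cannot tell the tissue. Of the 16 hypothalamic genes 4 rose and 1 fell, where 22.2% and 44.1% of all genes did. HFD replicate 1 stood apart from the other HFD samples. It was lowest for the choroid plexus list, at -1.26 from the mean of all samples, for leptomeninges (-0.65) and for tanycytes and ependyma (-0.73). It was also lowest for the striatal list (-1.40) and the hypothalamic list (-0.40). The hypothalamic list was at 0.16 to 0.34 in the other HFD samples and at -0.25 to -0.07 in CO samples. HFD replicate 1 was highest for the pituitary list (1.02), of which 4 of 6 genes were measured, 2 of them above background on all 11 arrays. CO replicates 1, 2 and 5 stood above the others for the striatal list, at 1.37, 1.66 and 1.14 from the mean of all samples. CO replicates 3 and 4 were at 0.14 and -0.62. Because the samples are whole tissue, fewer cells of a type and less RNA per cell cannot be told apart.

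Of 101 mouse genes with a matching symbol, 94 had a probe and 80 passed the filter, 73 of them on all 11 arrays. Of all mouse spots, 82.5% to 85.7% were well above background on the CO arrays and 71.8% to 77.4% on the HFD arrays. A dim gene was thus detected less often in HFD whatever its family. Slc6a20b and Slc5a8 stood at the edge of the rule, above background on the 5 CO arrays and on no HFD array, and Slc27a6 just missed it with 4 arrays. Among the other 13 genes under the filter were Slc2a2, the glucose carrier of liver and pancreatic islets, Slc6a2, the noradrenaline transporter, and Slc5a1, the intestinal glucose cotransporter, each above background on at most 2 arrays. Slc6a5, the neuronal glycine transporter, was among 7 genes with no matched probe.

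In the HFD offspring 16 of the 80 transporter genes rose, 37 fell and 27 did not pass the test. Across all genes tested, 66.4% passed, with 22.2% higher and 44.1% lower, so 53 of 80 is near the background and the set as a whole did not stand out in how often it moved. Its median difference was -0.19, against -0.17 for all genes. The members that moved were spread over both directions, with Slc16a7, Slc16a14, Slc7a11 and Slc5a3 higher by at least 2-fold (4 of 80, against 5.61% of all genes) and 7 with a fitted difference at least 2-fold lower (against 10%). The 7 include Slc5a8 and Slc6a20b, which were above background on no HFD array and for which the falls are bounded only at 1.13- and 1.24-fold. In 4 members the groups did not overlap and HFD was higher (16.1% of all genes), and in 26 they did not overlap and HFD was lower (30.5%). Of the 73 members above background on all 11 arrays, 16 rose and 32 fell, against 24.2% and 41.2% of all genes measured on every array, and 3 were at least 2-fold lower, against 4.79%. Normexp background correction, an alternative chosen after seeing the data, ended 26 of the 53 calls. Of genes given without full values, it ended Slc5a2, Slc5a4a, Slc5a6, Slc5a8, Slc5a9, Slc6a20b, Slc7a1, Slc7a2, Slc7a8, Slc16a5, Slc27a5, Slc36a3, Slc38a6 and Slc38a9. Over all genes normexp called 2682 higher and 3868 lower, where the reported test called 3819 and 7588.

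**Figure D1:**
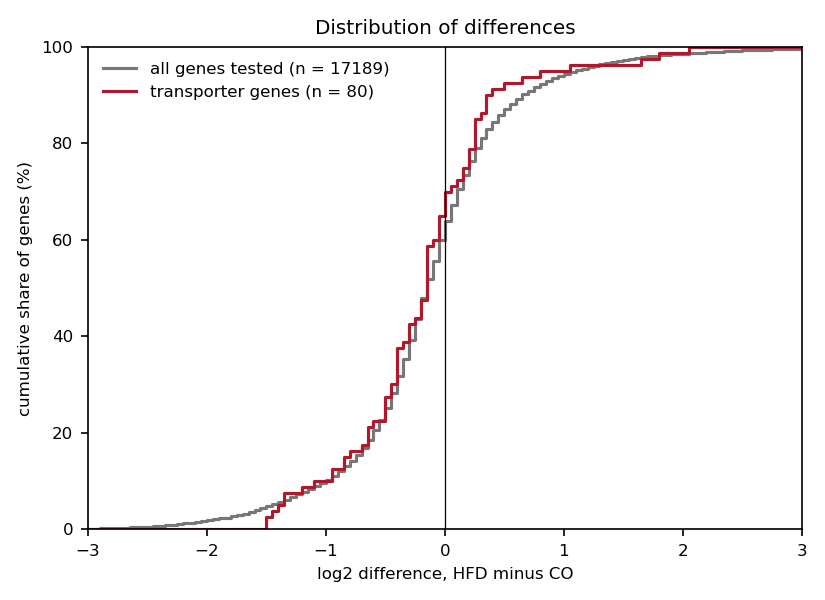
Cumulative share of genes (y axis, %) at or under a given log2 difference between HFD and CO offspring (x axis) for the 80 transporter genes and for all 17189 genes tested. The curves run close to each other, with medians of -0.19 and -0.17.

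The counts of each family stand beside 22.2% of all genes higher and 44.1% lower. Of 10 Slc5 genes, sodium-coupled carriers of sugars, inositol, choline and vitamins, 2 rose and 7 fell, with a median of -0.82, or -0.49 with Slc5a8 at its bound. Of 11 Slc38 genes, sodium-coupled carriers of glutamine and other neutral amino acids, 3 rose and 6 fell (median -0.23). The 14 Slc16 genes, proton-coupled carriers of lactate and ketone bodies and their relatives, were spread widest, with 4 higher and 5 lower and a range from -0.86 to 2.02. The 9 Slc2 glucose carriers gave 2 higher and 4 lower, and the 12 Slc7 genes gave 3 higher and 5 lower. The 15 Slc6 genes, carriers of transmitters, taurine and creatine, gave 1 higher and 6 lower, with 8 not past the threshold. Of 5 Slc27 fatty acid carriers 1 rose and 2 fell, and of 4 proton-coupled Slc36 carriers none rose and 2 fell. Slc5a2, Slc5a8, Slc6a20b and Slc36a3, counted here as lower, met the rule of 5 arrays only with the CO arrays.

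**Figure D2:**
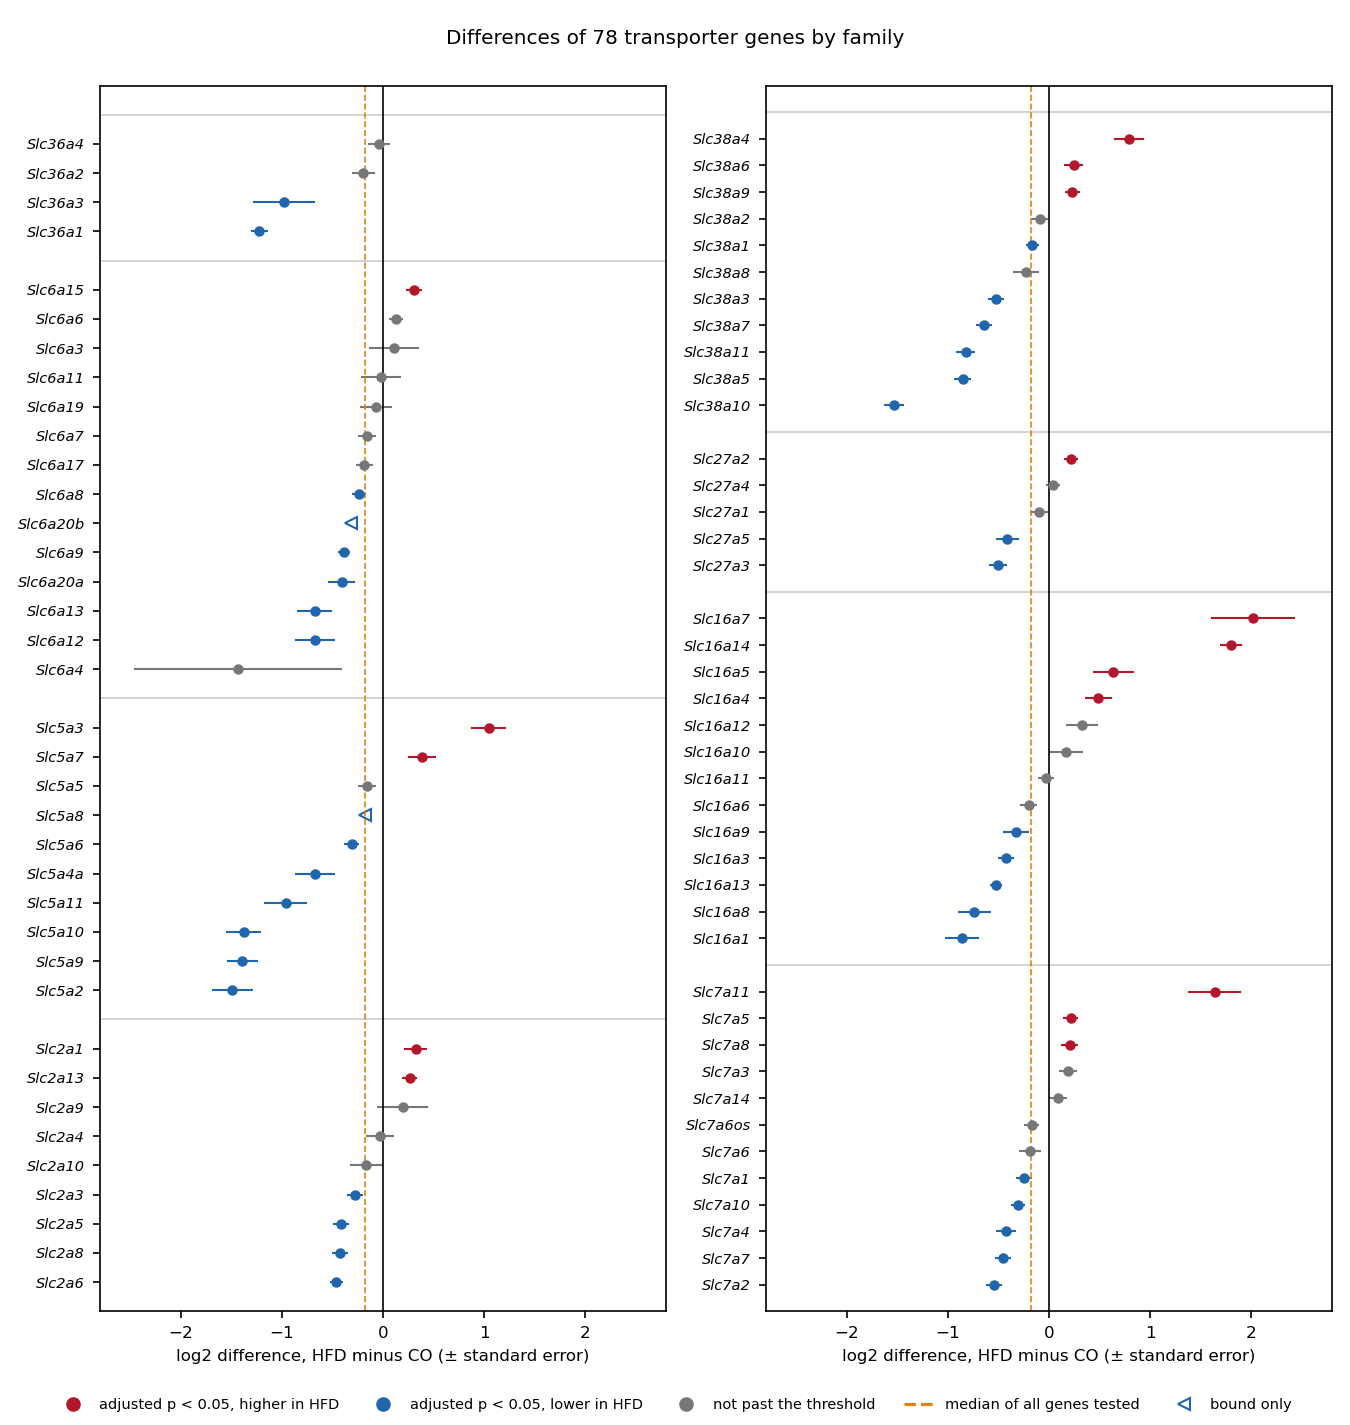
Log2 difference between HFD and CO offspring (x axis, points with standard error) for 78 of the 80 transporter genes, grouped by family, in red or blue where the adjusted p from limma was under 0.05 and in grey otherwise, and with triangles at the bounds of Slc5a8 and Slc6a20b. The dashed line marks the median of all genes, -0.17, and the points run from -1.53 for Slc38a10 to 2.02 for Slc16a7.

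The sequence before the transcription start is shown for the pair of members with the largest increases and the pair with the largest decreases among those named with full values and with a single promoter in the RefSeq table of the mouse assembly GRCm38.p6. Each run gives the 250 bases before the start, read 5′ to 3′ along the gene. Capitals mark matches on either strand to TGATGCAA, the core of the amino acid response element bound by ATF4, to CACGTG, the E-box bound by MYC and other factors of its class, and to CCAAT, the box bound by NF-Y.
Slc16a14 promoter, chr1:84935084-84935333, minus strand: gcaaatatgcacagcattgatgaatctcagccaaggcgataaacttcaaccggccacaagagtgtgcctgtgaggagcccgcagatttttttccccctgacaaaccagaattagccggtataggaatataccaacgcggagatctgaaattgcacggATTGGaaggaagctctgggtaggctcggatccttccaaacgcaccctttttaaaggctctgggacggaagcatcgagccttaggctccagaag
Slc7a11 promoter, chr3:50443614-50443863, minus strand: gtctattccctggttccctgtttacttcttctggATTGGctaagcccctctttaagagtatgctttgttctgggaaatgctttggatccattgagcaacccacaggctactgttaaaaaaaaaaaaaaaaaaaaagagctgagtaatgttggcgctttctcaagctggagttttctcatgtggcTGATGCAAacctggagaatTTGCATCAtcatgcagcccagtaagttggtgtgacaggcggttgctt
Slc38a10 promoter, chr11:120151352-120151601, minus strand: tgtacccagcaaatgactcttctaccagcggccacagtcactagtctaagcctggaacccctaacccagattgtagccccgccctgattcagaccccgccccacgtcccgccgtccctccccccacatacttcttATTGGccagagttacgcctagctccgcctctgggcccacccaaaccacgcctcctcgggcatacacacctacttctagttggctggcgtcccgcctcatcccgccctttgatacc
Slc36a1 promoter, chr11:55204090-55204339, plus strand: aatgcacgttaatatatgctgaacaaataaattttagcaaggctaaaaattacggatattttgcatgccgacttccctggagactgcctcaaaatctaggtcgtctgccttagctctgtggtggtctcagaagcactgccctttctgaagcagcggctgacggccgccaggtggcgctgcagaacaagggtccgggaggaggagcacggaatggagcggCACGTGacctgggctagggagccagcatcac
The Slc7a11 sequence held TGATGCAA at 2 places close together on opposite strands, and a single CCAAT box. Over 32851 mouse promoters of this length, 0.79% held TGATGCAA, and 58 transporter genes had 79 promoters in the table, of which 2 held it, those of Slc7a11, which rose, and Slc7a7, which fell. CACGTG was found in 8 of the 79 promoters (6.02% of all promoters), that of Slc36a1 among them, and CCAAT in 22 of 79 (33.9% of all). A match describes the letters only. The median number of CG pairs in these bases was 12 for the 12 members that rose, 12 for the 27 that fell and 15 for the 19 that did not pass, and over all genes it was 15, 12 and 14.

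Among the hexose carriers, Slc2a1, the glucose carrier of brain endothelium and glia, rose, and Slc2a3, the neuronal glucose carrier, fell, both by little. The level of Slc2a1 was 3.10, 3.10, 3.03, 2.92 and 3.06 in CO replicates 1 to 5 and ran from 3.04 to 3.77 in the HFD samples, with a median of 3.33. The lowest HFD sample lay within the CO range. The difference was 0.32 (standard error 0.11, adjusted p = 0.0263 from limma), a 1.25-fold rise, and it turned to -0.35 with spike-in scaling (adjusted p = 0.00234). Without CO replicate 4 or HFD replicate 1 it no longer passed, with an adjusted p of 0.0526 without the latter. The level of Slc2a3 was 2.30, 2.34, 2.12, 2.26 and 2.47 in CO and 1.86 to 2.17 in HFD samples, with a median of 2.02. The groups overlapped through CO replicate 3, and the difference was -0.28 (standard error 0.079, adjusted p = 0.00859).

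Slc2a4, the insulin-responsive glucose carrier GLUT4, did not pass. Its level was -1.59, -1.56, -1.47, -1.76 and -1.83 in CO and -2.01 to -1.32 in HFD samples (median -1.66), so the HFD samples spread to both sides of the CO samples. The difference was -0.02 with a standard error of 0.14 (adjusted p = 0.883), and its sign turned in several alternatives. Slc2a6 (-0.46), Slc2a8 (-0.42) and Slc2a5, the fructose carrier (-0.41), fell without overlap between the groups. Slc2a13, the proton-coupled myo-inositol carrier, rose by 0.26.

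All 4 sodium-coupled sugar carriers of the Slc5 family that passed the filter fell, all at low signal, where 44.1% of all genes fell. Slc5a1 and Slc5a4b, under the filter, were above background on 2 and 3 CO arrays and on no HFD array. Every HFD array had a smaller share of all spots above background (71.8% to 77.4%) than any CO array (82.5% to 85.7%). Slc5a10, a carrier of mannose and fructose best known from kidney, had a level of -4.35, -3.29, -3.69, -3.57 and -3.83 in CO samples and of -5.46 to -4.77 in HFD samples (median -5.11). The groups did not overlap, and the fall was 2.59-fold (difference -1.37, standard error 0.17, adjusted p = 3.52e-05), but normexp correction gave -0.80 without a call (adjusted p = 0.0791). Slc5a9 differed by -1.39, Slc5a2, the renal glucose cotransporter SGLT2, by -1.49, and Slc5a4a by -0.67. Slc5a2 was above background on 2 of the 6 HFD arrays and Slc5a9 on 5. Slc5a2 thus met the rule of 5 arrays only with the CO arrays, where it was higher. None of the 4 passed with normexp, which gave -0.57 for Slc5a9 (adjusted p = 0.332), -0.42 for Slc5a2 (adjusted p = 0.526) and -0.35 for Slc5a4a (adjusted p = 0.402).

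Carriers of myo-inositol moved in both directions. Slc5a3, which takes up myo-inositol as an osmolyte, was at -2.67, -3.03, -2.33, -2.14 and -3.09 in CO samples and at -1.94 to -1.42 in HFD samples (median -1.56). All HFD samples lay above all CO samples, by 2.07-fold on average (difference 1.05, standard error 0.17, adjusted p = 0.000261), and a second probe gave 1.01. Slc5a11, another sodium-coupled myo-inositol carrier, was at -0.85, -0.99, -0.80, -1.02 and -1.0 in CO and at -2.55 to -1.38 in HFD samples (median -1.65). It fell in every HFD sample, most in replicates 3 and 4 (difference -0.96, standard error 0.21, adjusted p = 0.00195), and its other probe, above background on 1 of the 6 HFD arrays, gave -1.56.

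Slc5a7, the high-affinity choline carrier of cholinergic neurons, was at -1.59, -1.97, -1.71, -1.75 and -2.24 in CO and at -1.67 to -1.13 in HFD samples (median -1.55). The groups overlapped, and the difference was 0.39 (standard error 0.14, adjusted p = 0.0269). It turned to -0.28 with spike-in scaling, where it did not pass, and its call was lost without any of CO replicates 2 and 5 and HFD replicates 2 and 3. A dimmer probe of Slc5a7 gave 0.58 with no overlap (adjusted p = 0.004 over all probes). Slc5a6, the carrier of biotin and pantothenate, fell by 0.31, and Slc5a5, the iodide carrier, differed by -0.16 and did not pass. Slc5a8, a sodium-coupled carrier of short-chain monocarboxylates, was not well above background on any HFD array and passed the filter through the CO arrays alone, so that it had to be lower in HFD. Its fall is bounded at 1.13-fold or more, and with normexp correction the difference was -0.23 and did not pass (adjusted p = 0.758).

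**Figure D3:**
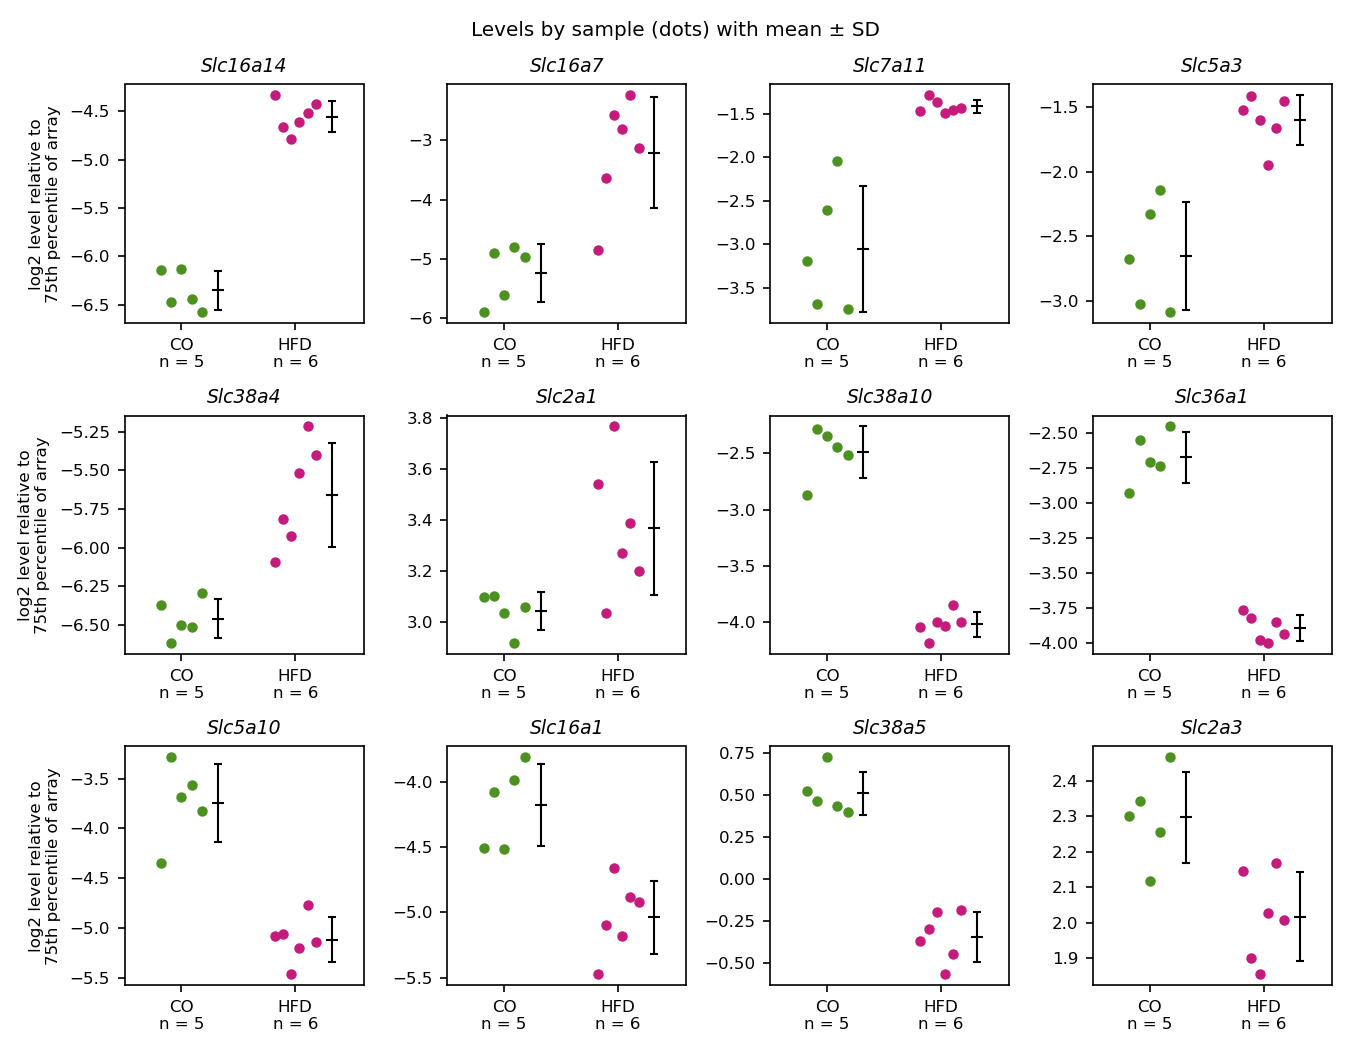
Level of 12 transporter genes in each sample (y axis, log2 relative to the 75th percentile of the array; dots, samples; bars, mean ± SD, n = 5 CO and n = 6 HFD). In Slc16a14, Slc7a11, Slc5a3 and Slc38a4 all HFD samples lie above all CO samples, in Slc38a10, Slc36a1, Slc5a10, Slc16a1 and Slc38a5 all lie below, and in Slc16a7, Slc2a1 and Slc2a3 the groups overlap.

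Slc6a11, which clears GABA into astrocytes, did not pass the test. It was at 0.26, 0.89, 0.37, 1.45 and 0.87 in CO and at 0.51 to 1.06 in HFD samples (median 0.75). The HFD samples lay inside the CO range (difference -0.02, standard error 0.20, adjusted p = 0.934).

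GABA and betaine carriers of the brain's borders fell. Slc6a13, the GABA and taurine carrier of leptomeninges and vessels, was at 0.10, -0.10, 0.08, 0.09 and -0.17 in CO and at -1.37 to -0.18 in HFD samples (median -0.61), with HFD replicate 1 lowest. The difference was -0.67 (standard error 0.17, adjusted p = 0.00522), and without HFD replicate 1 it was -0.53 (adjusted p = 0.00238). Slc6a12, the betaine and GABA carrier, differed by -0.67 and Slc6a20a, an imino acid carrier, by -0.41, each again with HFD replicate 1 lowest, and both still passed without it (-0.50 and -0.31). The choroid plexus list, lowest in that sample, had 9 of 9 genes measured, of which none rose and 2 fell, with a summed linear level of 45.4 to 65.4 in CO and 21.1 to 60.9 in HFD samples. Of the 8 leptomeningeal genes 2 rose and none fell, with a summed level of 10.3 to 14.7 in CO and 7.56 to 14.1 in HFD samples. Among all genes tested 22.2% rose and 44.1% fell. The part of choroid plexus and leptomeningeal cells in the falls of these carriers was not tested.

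**Figure D4:**
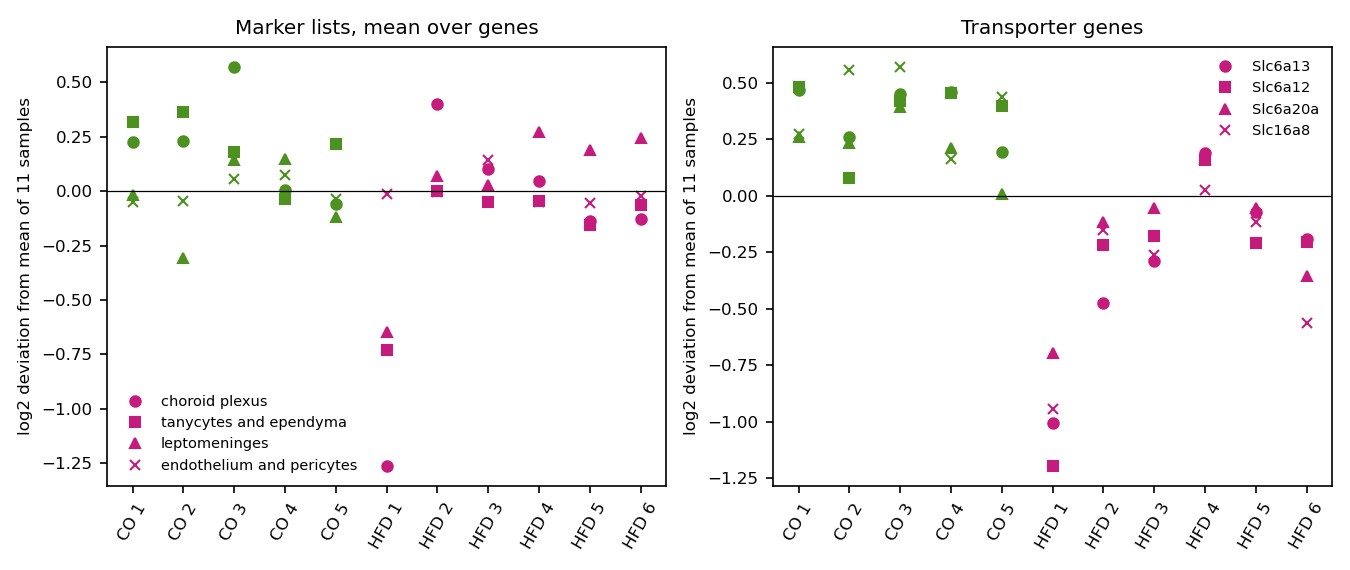
Deviation of each sample from the mean of the 11 samples (y axis, log2) for 4 marker lists, as the mean over the genes of a list (left), and for Slc6a13, Slc6a12, Slc6a20a and Slc16a8 (right), with CO samples in green and HFD samples in magenta. HFD replicate 1 is lowest for the choroid plexus list, at -1.26, and for all 4 transporter genes.

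Slc6a9, the glycine carrier of astrocytes, fell by little and with no overlap. It was at 4.67, 4.82, 4.77, 4.72 and 4.81 in CO and at 4.29 to 4.57 in HFD samples (median 4.34), a difference of -0.38 (standard error 0.061, adjusted p = 0.000204), and a second probe gave -0.44. Slc6a8, the creatine carrier, was at 3.76, 3.74, 3.86, 3.49 and 3.65 in CO and at 3.36 to 3.54 in HFD samples (median 3.47). CO replicate 4 lay within the HFD range, and the difference was -0.24 (standard error 0.068, adjusted p = 0.00913). Slc6a6, the taurine carrier, was at 2.98, 2.95, 3.02, 2.83 and 2.86 in CO and at 2.91 to 3.27 in HFD samples (median 3.04), which overlap (difference 0.13, standard error 0.069, adjusted p = 0.12).

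The monoamine carriers varied widely within the groups, and neither passed the test. Slc6a3, the dopamine transporter, was at 2.15, 2.56, 2.50, 2.54 and 2.28 in CO and at 1.62 to 3.29 in HFD samples (median 2.63). Both the lowest and the highest sample were HFD samples (difference 0.11, standard error 0.25, adjusted p = 0.707). Slc6a4, the serotonin transporter, was at -8.12, -7.35, -8.04, -7.32 and -4.20 in CO and at -9.83 to -4.15 in HFD samples (median -9.16). CO replicate 5 and HFD replicate 3 were far above the rest of their groups, HFD replicate 3 being the single HFD array on which it was above background, and the difference of -1.43 had a standard error of 1.03 (adjusted p = 0.237). Slc6a4 met the rule of 5 arrays only with the CO arrays. Without HFD replicate 3 it was above background on no HFD array, so that it had to be lower in HFD. The fitted difference was then -2.29 (adjusted p = 0.0101), resting on HFD signals that were not above background. Without CO replicate 5 the difference was -0.73 and did not pass (adjusted p = 0.524). Slc6a15, a carrier of branched-chain amino acids and proline in neurons, was the Slc6 gene that rose (0.31).

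Among the light chains of amino acid exchangers, Slc7a11 moved most. It encodes xCT, which exports glutamate in exchange for cystine and so feeds glutathione synthesis. Its level was -3.19, -3.69, -2.61, -2.04 and -3.75 in CO samples and -1.49 to -1.29 in HFD samples (median -1.45). The 6 HFD samples lay within a narrow band above all CO samples, while the CO samples were spread widely, with replicates 3 and 4 highest, which were the CO samples lowest for the striatal list. The difference was 1.64 (standard error 0.27, adjusted p = 0.000232), a 3.11-fold rise. Of the 9 striatal genes none rose and 7 fell, where 22.2% and 44.1% of all genes did. Their summed linear level was 15.6 to 75.7 in CO and 11 to 25.9 in HFD samples. The part of striatal tissue in the Slc7a11 difference was not tested.

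Slc7a5, the large neutral amino acid carrier LAT1 of the blood-brain barrier, was at 0.01, 0.20, 0.00, 0.16 and 0.02 in CO and at 0.09 to 0.45 in HFD samples (median 0.29). The groups overlapped, and the difference was 0.22 (standard error 0.074, adjusted p = 0.0229). It turned to -0.45 with spike-in scaling (adjusted p = 0.000139), its call was lost without CO replicate 1, 3 or 5, and a dimmer probe of the gene gave 1.12. Slc7a10, the carrier of D-serine and small neutral amino acids in astrocytes and neurons, was at 2.26, 2.14, 2.29, 2.05 and 2.03 in CO and at 1.75 to 2.01 in HFD samples (median 1.83). It fell with no overlap (difference -0.31, standard error 0.070, adjusted p = 0.0024).

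Of the other exchanger light chains, Slc7a8, which carries neutral amino acids as LAT2, rose by 0.21, Slc7a7, which exchanges cationic for neutral amino acids, fell by 0.45, and Slc7a6 differed by -0.18 and did not pass. Of 5 genes of the cationic amino acid group, the arginine and lysine carriers Slc7a1 (-0.24) and Slc7a2 (-0.54) and their relative Slc7a4 (-0.42) fell, and Slc7a3 (0.18) and Slc7a14 (0.09) did not pass. With normexp correction Slc7a1 (-0.25, adjusted p = 0.102) and Slc7a2 (-0.21, adjusted p = 0.734) no longer passed. Slc3a2, the heavy chain that brings most of these light chains to the membrane, fell by 0.24, and Slc3a1, the heavy chain of the cystine carrier of kidney, rose by 0.28, and neither passed with normexp.

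The monocarboxylate carriers held the largest increases. Slc16a7 encodes MCT2, the high-affinity lactate and ketone body carrier of neurons. Its level was -5.89, -4.90, -5.60, -4.79 and -4.97 in CO samples and -4.85 to -2.24 in HFD samples (median -2.98). HFD replicate 1, the lowest, lay within the CO range, and the other 5 HFD samples lay above it. The difference was 2.02 (standard error 0.42, adjusted p = 0.00117), a 4.07-fold rise, and it was 2.35 without HFD replicate 1 (adjusted p = 5.25e-05). With normexp background correction it was 1.08 and did not pass (adjusted p = 0.0528).

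Slc16a14, a member of the family whose substrate is little known, was at -6.14, -6.47, -6.13, -6.44 and -6.58 in CO samples and at -4.78 to -4.33 in HFD samples (median -4.56). The groups were far apart and each was narrow. The difference was 1.80 (standard error 0.11, adjusted p = 2.23e-07), a 3.48-fold rise at low signal, and with normexp correction it was 0.70 and did not pass (adjusted p = 0.131). Slc16a4, a further member of little known substrate, rose by 0.49.

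Slc16a1, the widely expressed lactate carrier MCT1 of endothelium and glia, was at -4.50, -4.08, -4.51, -3.99 and -3.81 in CO and at -5.47 to -4.66 in HFD samples (median -5.01). It fell with no overlap (difference -0.86, standard error 0.17, adjusted p = 0.000746), and by 0.77 without HFD replicate 1. With normexp correction the difference was -0.42 and did not pass (adjusted p = 0.354). Slc16a3, the lactate exporter MCT4 of glycolytic cells, was at -0.35, -0.37, -0.29, -0.70 and -0.45 in CO and at -0.97 to -0.73 in HFD samples (median -0.87). It too fell with no overlap (difference -0.42, standard error 0.080, adjusted p = 0.00068), and its other probe gave -0.48. Slc16a8, the lactate carrier MCT3 of retinal pigment epithelium and choroid plexus, was at -4.06, -3.77, -3.76, -4.17 and -3.89 in CO and at -5.28 to -4.31 in HFD samples (median -4.54), lowest in HFD replicate 1. Its difference was -0.74 (standard error 0.16, adjusted p = 0.00191) and -0.61 without that sample (adjusted p = 0.00111), and with normexp correction it was -0.39 and did not pass (adjusted p = 0.333).

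MCT1 and MCT4 reach the membrane with the chaperone basigin and MCT2 with embigin. Bsg, which encodes basigin, was at 2.07 to 2.40 in CO and at 1.39 to 1.65 in HFD samples, all of them below the CO samples (difference -0.73, adjusted p = 9.95e-06). Emb, which encodes embigin, was at 0.40 to 0.92 in CO and at 1.10 to 1.34 in HFD samples, all above (difference 0.59, adjusted p = 0.000235). With spike-in scaling Emb differed by -0.08 and did not pass (adjusted p = 0.546).

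Slc16a10, the aromatic amino acid carrier, differed by 0.17 and did not pass.

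The fatty acid carriers moved little. Slc27a1 (FATP1), which promotes uptake of long-chain fatty acids, was at 0.43, 0.50, 0.43, 0.28 and 0.45 in CO and at 0.16 to 0.68 in HFD samples (median 0.26). HFD replicate 3 lay above all CO samples and the others in or below their range (difference -0.10, standard error 0.089, adjusted p = 0.331), and without that sample the gene passed as lower (-0.17, adjusted p = 0.0218). Slc27a4 (FATP4) was at -3.67, -3.34, -3.43, -3.37 and -3.27 in CO and at -3.46 to -3.31 in HFD samples (median -3.37), inside the CO range (difference 0.04, standard error 0.074, adjusted p = 0.643). Slc27a3 (-0.50) and Slc27a5 (-0.41) fell and Slc27a2, a very long-chain acyl-CoA synthetase, rose (0.22). A dimmer probe of Slc27a5 gave -0.10 and did not pass (adjusted p = 0.293 over all probes).

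Of 5 other genes of lipid uptake, Cd36, the fatty acid translocase, rose by 1.31 (adjusted p = 0.000162) and Fabp7, the fatty acid binding protein of astrocytes and tanycytes, by 1.07 (adjusted p = 0.000803). Mfsd2a, the carrier of lysophospholipids with docosahexaenoic acid at the blood-brain barrier, fell by 0.54 (adjusted p = 0.000503). In each of these genes the groups did not overlap. Cd36 did not pass with normexp correction (0.42, adjusted p = 0.431), nor Fabp7 with spike-in scaling (0.40, adjusted p = 0.0907). Fabp5 (0.09) and Fabp3 (-0.11) did not pass.

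Among the proton-coupled amino acid carriers, Slc36a1 fell most. It encodes PAT1, which moves glycine, alanine and proline out of lysosomes and into intestinal cells. Its level was -2.93, -2.55, -2.71, -2.74 and -2.45 in CO and -4.0 to -3.77 in HFD samples (median -3.90). The groups lay far apart (difference -1.22, standard error 0.086, adjusted p = 7.00e-07), a 2.33-fold fall, and the second probe gave -1.04. Slc36a4 (-0.04) and Slc36a2 (-0.20) did not pass, and Slc36a3, above background on 3 of 6 HFD arrays, differed by -0.98. A dimmer probe of Slc36a4 rose by 0.44 (adjusted p = 0.00471 over all probes), so its probes disagree.

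The largest fall among the members above background on all arrays was that of Slc38a10, a carrier of glutamine and related amino acids. It was at -2.87, -2.28, -2.35, -2.44 and -2.51 in CO and at -4.19 to -3.85 in HFD samples (median -4.02). No sample came near the other group, and the fall was 2.89-fold (difference -1.53, standard error 0.10, adjusted p = 4.68e-07). Slc38a5, a glutamine and glycine carrier of glia and vessels, was at 0.52, 0.47, 0.72, 0.44 and 0.40 in CO and at -0.56 to -0.18 in HFD samples (median -0.33). Its fall was 1.80-fold with no overlap (difference -0.85, standard error 0.085, adjusted p = 7.10e-06).

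Slc38a3, the astrocytic carrier that releases glutamine to neurons, was at 0.94, 0.92, 0.97, 0.79 and 0.70 in CO and at 0.23 to 0.61 in HFD samples (median 0.31). It fell with no overlap (difference -0.52, standard error 0.079, adjusted p = 0.000143). Slc38a1, which takes up glutamine into neurons, was at 3.48, 3.48, 3.59, 3.44 and 3.36 in CO and at 3.19 to 3.45 in HFD samples (median 3.27). The groups overlapped, the difference of -0.16 was at the edge of the threshold (standard error 0.066, adjusted p = 0.0437), and it lost its call when any of 8 of the 11 samples was left out, with an adjusted p of up to 0.105. Its other probes gave -0.02 and 0.14 and did not pass. Slc38a2, the carrier induced by amino acid shortage, was at 2.95, 2.87, 3.02, 3.36 and 3.06 in CO and at 2.87 to 3.08 in HFD samples (median 2.97), which overlap (difference -0.09, standard error 0.086, adjusted p = 0.368).

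Slc38a7, a glutamine carrier of lysosomes, was at -2.08, -1.90, -2.09, -2.08 and -2.04 in CO and at -2.82 to -2.40 in HFD samples (median -2.72), with no overlap (difference -0.64, standard error 0.079, adjusted p = 3.15e-05). Slc38a11 was at -3.56, -3.45, -3.36, -3.10 and -3.46 in CO and at -4.46 to -4.08 in HFD samples (median -4.18), again with no overlap (difference -0.82, standard error 0.092, adjusted p = 1.50e-05), but its dimmer probe gave 0.20 and did not pass, and normexp correction gave -0.54 without a call (adjusted p = 0.0921). Slc38a4, an imprinted carrier of neutral and cationic amino acids, was at -6.37, -6.62, -6.50, -6.51 and -6.29 in CO and at -6.09 to -5.22 in HFD samples (median -5.67). All HFD samples lay above the CO samples, near the lower end of the signal (difference 0.80, standard error 0.15, adjusted p = 0.000595), and with normexp correction the difference was 0.25 and did not pass (adjusted p = 0.687). Slc38a9, the lysosomal arginine sensor upstream of mTORC1, rose by 0.23 and Slc38a6 by 0.24.

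Of 51 measured genes that work beside these carriers or regulate them, 8 rose and 19 fell, against 22.2% and 44.1% of all genes. None of 7 glutamate and neutral amino acid carriers of the Slc1 family rose and 3 fell (44.1% of all genes fell), the retinal glutamate carrier Slc1a7 (-1.10), Slc1a4 (-0.63) and Slc1a5 (-0.21), while the astrocytic glutamate carriers Slc1a2 (0.11) and Slc1a3 (0.00) did not pass. Slc1a7 (-0.71, adjusted p = 0.124) and Slc1a5 (-0.22, adjusted p = 0.302) did not pass with normexp. Of 25 further carriers of vitamins, nucleosides, peptides and amino acids none rose and 11 fell, where 22.2% and 44.1% of all genes did, with the smallest adjusted p for the folate carriers Slc19a1 (-0.54) and Slc46a1 (-0.55), the peptide and histidine carrier Slc15a4 (-0.70) and Slc43a3 (-0.64).

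Of 10 regulators 4 rose and 2 fell, where 22.2% and 44.1% of all genes did. Nfat5, the transcription factor of the response to osmotic stress, was at -5.73 to -4.65 in CO and at -3.84 to -3.69 in HFD samples, all above the CO samples (difference 1.46, adjusted p = 1.67e-05). Of the osmolyte carriers it is known to induce, Slc5a3 rose, Slc6a12 fell and Slc6a6 did not pass. Nedd4l, a ubiquitin ligase that removes carriers from the membrane, rose by 0.65, Hif1a, the hypoxia-responsive factor, by 0.37, and Atf4, which induces Slc7a11 and Slc7a5 on amino acid shortage, by 0.19 (adjusted p = 0.0450; 0.482 with normexp). Mlx (-0.37) and Mlxip (-0.41), partners in glucose-responsive transcription, fell, Mlxip without a call under normexp (adjusted p = 0.135), and Txnip (0.25), Arrdc4 (0.16), Sgk1 (-0.46) and Nfe2l2 (-0.21), the factor of the antioxidant response, did not pass.

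For 20 members more than 1 probe passed the filter, 42 probes in all. In 10 of these genes every probe moved the same way past the threshold, and in 9 some probes passed and others did not. Among the 10 are Slc7a4 and Slc5a11, whose dimmer probes met the filter only with the CO arrays. Those probes were above background on no HFD array and on 1, so their direction was largely set by the filter. In Slc16a5 the probes passed in opposite directions. The brightest rose by 0.64, which did not pass with normexp (0.13, adjusted p = 0.861). The other, above background on the 5 CO arrays and on no HFD array, was at least 2.84-fold lower in HFD, with a measured mean level of -5.88 (SD 1.16) over the 5 CO samples and of -9.02 (SD 0.29) over the 6 HFD samples. Slc16a6, a carrier of ketone bodies, differed by -0.20 on its brightest probe, which did not pass, and by 1.41 on the other (adjusted p = 0.00151 over all probes). Over all 102 probes of the members, 22 were higher and 46 lower, against 67.1% of all probes past the threshold in either direction.

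**Figure D5:**
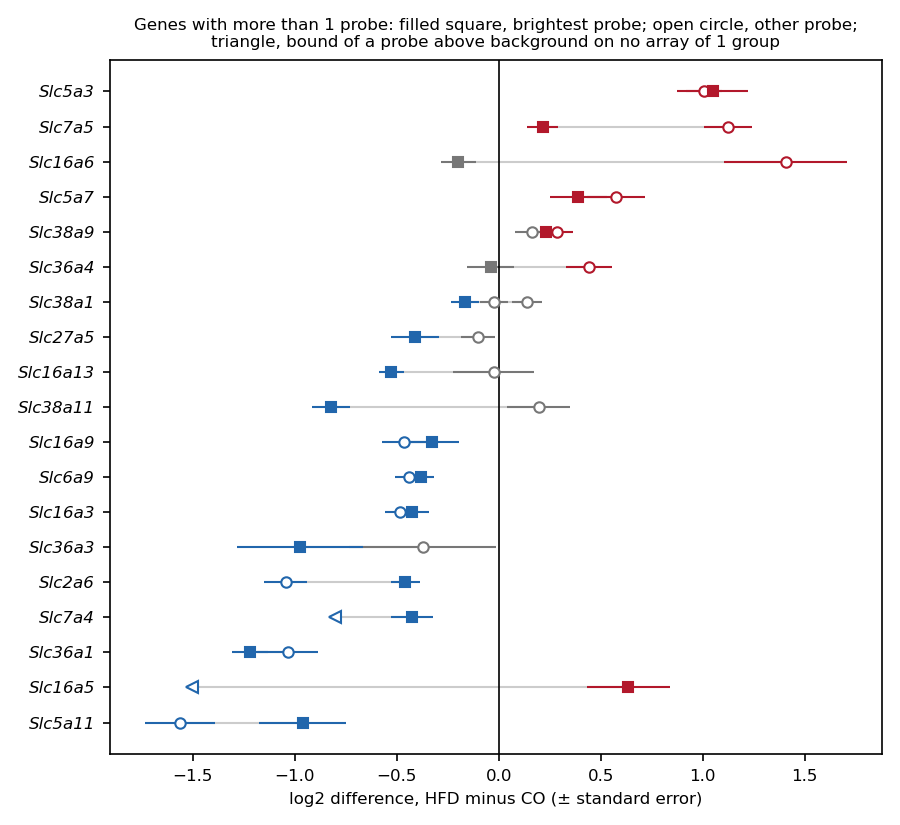
Log2 difference between HFD and CO offspring (x axis, with standard error) of each probe of 19 of the 20 transporter genes with more than 1 probe past the filter, filled squares for the brightest probe and open circles for the others, red or blue where the adjusted p was under 0.05. Triangles mark the bounds of a probe of Slc16a5 and one of Slc7a4 that were above background on no HFD array. The squares and circles lie close for Slc5a3, Slc6a9 and Slc16a3 and far apart for Slc16a6, at -0.20 and 1.41, and those of Slc16a5 lie on either side of 0.

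Markers of other cells moved as well. Of 10 neuronal genes 6 rose and none fell, of 12 oligodendrocyte genes 1 rose and 7 fell, of 15 endothelial and pericyte genes 6 rose and 6 fell, of 9 astrocyte genes 2 rose and 2 fell, and of 10 genes of tanycytes and ependyma none rose and 5 fell. Of 12 microglial genes 2 rose and 6 fell, and all 4 measured red blood cell genes fell, where 22.2% of all genes rose and 44.1% fell. The summed linear level of the neuronal list was 160 to 171 in CO and 192 to 211 in HFD samples, and that of the endothelial list 36.4 to 39.4 and 32.2 to 37. The oligodendrocyte list ran from 373 to 418 in CO and from 324 to 406 in HFD samples. The red blood cell list, with no overlap, was at 225 to 278 in CO and at 178 to 221 in HFD samples, and the microglial list, which overlapped, had a median of 95.4 and 91.1. The part of such shifts in the transporter differences was not tested.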

How the data were processed

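Hypothalamic RNA of 5 CO and 6 HFD male offspring at P21 was measured on single-dye Agilent arrays. The authors deposited the scanner output, and the values used are linear spot intensity values, produced by the authors in Feature Extraction (version 10.8 in the submitters' processing notes, 10.7.3.1 in the file headers), which had subtracted the background. Labels name the control samples SD and the protocol CO, and SD was taken as CO. Control and outlier spots were left out, spots of a probe were averaged, and log2 of the signal minus the 75th percentile of each array was analysed. Of 39429 probes, 26369 were named by accession through a table of the assembly GRCm38.p6, for 19987 genes, and coordinates are given only for promoters of that table. Genes were taken by the brightest probe if 5 or more of the 11 arrays had it well above background (17189 genes), and no mouse spot was saturated. The number of arrays limits the precision.

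HFD and CO were compared by limma 3.58.1 in R 4.3.3 (lmFit and eBayes, two-sided, Benjamini-Hochberg over all genes, threshold 0.05), tested on simulated data. Where no array of a group was above background, the fold is a bound against the lowest signal above background on each array, or the probe's own where higher. Genes given in full were the up to 10 largest increases and decreases among members past the threshold, without overlap and above background throughout (4 increases and 10 decreases were found and taken), plus fixed members, 32 in all. Results of 2 fixed members are not reported here, though the counts include them. The members and lists were chosen with earlier results of these data known. Slc16a4, Slc6a4, Slc6a12 and other members outside that rule are given with fewer values. Alternatives were quantile, median and spike-in scaling, normexp (offset 50, on the median signal, chosen after seeing the data since the files hold no mean signal), other filters, the mean over probes, slide, label number and replicate number as blocks, array weights, the Rank Product test of the study's methods and leaving out each array. No array held the values of another.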

Additional observations from a re-analysis of the deposited data

Results flagged for a closer look

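Samples far from the rest of their group were found in 4 of 64 groups of the genes given in full, where chance marks about 1 in 20. The highest CO sample for Slc38a7 was replicate 2 at -1.90 (the others -2.09 to -2.04). HFD replicate 3 was highest for Slc27a1 at 0.68 (others 0.16 to 0.30) and for Slc38a3 at 0.61 (others 0.23 to 0.35). HFD replicate 1 was highest for Slc6a9 at 4.57 (others 4.29 to 4.39).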

How the results depend on the processing

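Among the transporter genes, spike-in scaling left 3 higher (Slc16a7, Slc16a14 and Slc7a11) and 69 lower, with a median of -0.86. Over all 17189 genes it gave 957 higher and 14361 lower, with a median of -0.84. The Rank Product test called 3 higher, the same 3, and 1 lower, the serotonin transporter Slc6a4. Slc6a4 met the rule of 5 arrays only with the CO arrays and was above background on 1 HFD array. Its direction was thus largely set by the filter. Normexp correction, chosen after seeing the data, called 7 higher and 20 lower, and all 27 were also called in the reported test. Over all genes normexp called 2682 higher and 3868 lower, where the reported test called 3819 and 7588. For the genes beside the carriers the counts were 2 higher and 42 lower with spike-in scaling and 0 and 0 by Rank Product, where limma called 8 and 19 (7 to 9 and 17 to 20 on leaving out each array). For the probes of the members they were 6 and 86 with spike-in scaling and 7 and 22 with normexp. Over all 31796 probes they were 2261 and 25568 with spike-in scaling and 4590 and 5356 with normexp. The Rank Product counts rest on another threshold than those of limma. The part of this and of other causes in the smaller counts was not tested. Of the genes given in full, normexp ended the calls of Slc16a7, Slc16a14, Slc38a4, Slc5a10, Slc16a1, Slc16a8, Slc38a11, Slc2a1, Slc5a7, Slc6a8 and Slc38a1, and median scaling those of Slc2a3, Slc6a8 and Slc38a1. Leaving out each array gave 12 to 16 transporter genes higher, 35 to 39 lower and a median of -0.22 to -0.17. Spike-in scaling turned Slc2a1 to -0.35, Slc5a7 to -0.28, Slc6a3 to -0.56, Slc6a6 to -0.54, Slc7a5 to -0.45 and Slc27a4 to -0.63. The other turned signs were all of differences that did not pass: median scaling gave 0.039 for Slc2a4 and 0.044 for Slc6a11, array weights 0.0040 and 0.11, and normexp 0.11 for Slc6a11 and -0.077 for Slc27a4. Over the arrays left out, Slc2a4 ran from -0.094 to 0.044, Slc6a3 from -0.044 to 0.29, Slc6a11 from -0.15 to 0.15 and Slc27a4 from -0.023 to 0.077. With the replicate number as a block, 12 members were higher and 33 lower, all 45 called before, and Slc2a4 (0.044) and Slc6a11 (0.021) turned sign. Over all genes this block gave 3505 higher and 7127 lower. Samples of the same number did not deviate together (correlations from -0.10 to 0.18), so the numbers do not pair the samples. The mean over probes, slide and label number as blocks and Rank Product were not run over probes. The dim members, such as Slc5a8, rest on signals near the background.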
